A study of Homo sapiens with 38 samples.

Results

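Nuclear transfer RNA (tRNA) genes were examined for binding of the transcription factors GATA3 and BHLHE40 and for histone H3 acetylated at lysine 27 (H3K27ac) in stimulated Jurkat cells. The members were the RefSeq gene records of biotype tRNA on chromosomes 1 to 22 and X of GRCh38.p14, each extended by 500 bp on both sides. The gene table named 443 such records. Coordinates of 14 of them were those of unplaced or alternate scaffolds, and these were left out. The remaining 429 tRNA genes stand among 58419 gene records of all biotypes on the same chromosomes. Each gene was set against the lines of 3 peak lists, where a line is a region that the authors called as enriched.

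Jurkat is an established line from a human T-cell acute lymphoblastic leukaemia. The series holds 38 samples in 19 groups of 2, and 3 of these groups are used here. All 3 carried a control lentivirus (Ctrl_LV). They were treated with PMA (50 ng/ml) together with ionomycin (500 ng/ml), a pair of agents that mimic T-cell receptor signalling. The sample labels give 5 hours of stimulation and the treatment protocol gives 2 hours, a difference that was not resolved. The groups differ in the chromatin target, which was GATA3, BHLHE40 or H3K27ac. The other 16 groups were not analysed here. There were 29009 lines for GATA3, 26205 for BHLHE40 and 113570 for H3K27ac. The lists merge the 2 samples of a group, so no value here has a replicate error, and the depth of the samples is unknown. Among 12 genes typical of T cells, such as CD2 and CD247, 10 had a BHLHE40 line within 500 bp of an end of the gene record, 7 a GATA3 line and 9 an H3K27ac line. Of the T-cell genes, CD3G and CD5 had no line of any list at an end. Among 12 genes of other cell types the counts were 0, 1 and 0. Over all protein-coding records the shares with such a line were 45.3% for BHLHE40, 20.7% for GATA3 and 53.2% for H3K27ac.

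tRNA genes are transcribed by RNA polymerase III from a promoter that lies inside the gene. The factor TFIIIC binds 2 internal elements, the A box and the B box, and places TFIIIB just before the start, which in turn recruits the polymerase. GATA3 is a zinc-finger factor of T-cell development that binds GATA sequences, BHLHE40 is a basic helix-loop-helix factor induced on T-cell activation that binds E-boxes, and H3K27ac marks the nucleosomes of active promoters and enhancers. A tRNA gene symbol gives the amino acid in single-letter code (X for the initiator methionine, U for selenocysteine), the anticodon, the number of the mature sequence and the number of the gene copy. Copies that share all but the last number encode the same mature tRNA, so TRH-GTG1-3 and TRH-GTG1-9 are separate genes for the same histidine tRNA.

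The internal promoter and the flanks can be seen in the RefSeq windows from 250 bases before to 50 bases after the start of a neighbouring gene, where such a window holds a tRNA gene. There were 29 such windows, touching 27 tRNA genes, and 14 of the windows held a whole tRNA gene. Below, each is written 5′ to 3′ on the strand of the neighbouring gene, with the bases of the tRNA gene in capitals, and coordinates are those of GRCh38.p14. The first pair are the 2 histidine genes named above, which differ in what the lists hold. TRH-GTG1-3 is at chr1:148281365-148281436 in the window of LINC01731 (chr1:148281174-148281473, minus strand), with no line of any list within 500 bp. TRH-GTG1-9 is at chr15:45201151-45201222 in the window of SHF (chr15:45201067-45201366, minus strand), with lines of all 3 lists. Both tRNA genes are read on the plus strand, so the capitals show their reverse complement.
TRH-GTG1-3: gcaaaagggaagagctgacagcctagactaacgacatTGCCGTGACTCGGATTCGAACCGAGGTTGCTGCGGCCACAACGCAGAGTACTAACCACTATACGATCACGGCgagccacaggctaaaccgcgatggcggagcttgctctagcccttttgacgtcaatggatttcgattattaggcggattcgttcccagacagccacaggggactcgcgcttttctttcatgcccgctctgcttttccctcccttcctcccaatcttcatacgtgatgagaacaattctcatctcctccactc
TRH-GTG1-9: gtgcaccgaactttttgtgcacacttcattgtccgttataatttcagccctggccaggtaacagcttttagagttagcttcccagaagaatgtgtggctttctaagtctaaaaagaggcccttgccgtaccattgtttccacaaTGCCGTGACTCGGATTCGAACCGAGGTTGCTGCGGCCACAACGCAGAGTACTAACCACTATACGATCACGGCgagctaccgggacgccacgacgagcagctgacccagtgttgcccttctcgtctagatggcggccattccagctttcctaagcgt

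The second pair are proline genes. TRP-TGG3-2 is at chr14:20684016-20684087 in the window of ANG (chr14:20683927-20684226, plus strand) and had lines of all 3 lists. TRP-TGG3-5 is at chr16:3188094-3188165 in the window of OR1F1 (chr16:3187954-3188253, plus strand) and had a BHLHE40 line only. Both are read on the plus strand.
TRP-TGG3-2: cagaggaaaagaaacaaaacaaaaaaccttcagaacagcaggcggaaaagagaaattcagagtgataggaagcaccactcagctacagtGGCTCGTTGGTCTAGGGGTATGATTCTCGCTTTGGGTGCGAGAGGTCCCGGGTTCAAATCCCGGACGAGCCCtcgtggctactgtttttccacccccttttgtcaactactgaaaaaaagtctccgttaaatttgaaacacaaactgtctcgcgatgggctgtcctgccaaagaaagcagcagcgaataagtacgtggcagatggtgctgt
TRP-TGG3-5: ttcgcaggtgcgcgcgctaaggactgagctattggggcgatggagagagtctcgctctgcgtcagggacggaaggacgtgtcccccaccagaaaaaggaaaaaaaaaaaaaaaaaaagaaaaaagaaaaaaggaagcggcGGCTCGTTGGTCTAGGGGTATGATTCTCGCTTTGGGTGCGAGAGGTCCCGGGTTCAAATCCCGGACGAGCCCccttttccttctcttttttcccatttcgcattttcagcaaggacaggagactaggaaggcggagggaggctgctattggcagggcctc

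In each pair the tRNA genes were identical at 72 of 72 bases, and all the differences lay in the flanks. Copies that differed in their lists thus carried the same internal promoter. The lines were not all centred on the printed genes. At TRH-GTG1-9 the GATA3 line lay 149 bp from the record. The highest point of its BHLHE40 line was 682 bp from the centre of the gene, and TRH-GTG1-8 shared both lines. At TRP-TGG3-2 the highest point was 633 bp away for GATA3 and 72 bp for BHLHE40. Whether reads that match several copies were kept is not given in the sources used here, so the reads inside the capitals cannot be assigned to a copy from the lists alone. The flanks, which made up most of each extended gene, differ between copies.

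The third set shows tRNA genes at which the lists had some of their closest or strongest lines, and a copy with none. TRR-ACG2-1, an arginine gene at chr3:45688999-45689071 on the minus strand, lies in the window of LIMD1-AS1 (chr3:45688833-45689132, minus strand). Its GATA3 summit was 5 bp and its BHLHE40 summit 47 bp from the centre of the gene. By the authors' measure of enrichment, that GATA3 line ranked only 23306 of 29009. TRL-AAG2-4, a leucine gene at chr16:22297140-22297221 on the plus strand, lies beside POLR3E, which encodes a subunit of RNA polymerase III. The POLR3E window (chr16:22297159-22297458, plus strand) holds the last 63 bases of the tRNA gene. TRI-TAT2-2, an isoleucine gene with an intron at chr6:27020346-27020439 on the plus strand, lies in the window of LARRPM (chr6:27020257-27020556, minus strand) and had no line of any list.
TRR-ACG2-1: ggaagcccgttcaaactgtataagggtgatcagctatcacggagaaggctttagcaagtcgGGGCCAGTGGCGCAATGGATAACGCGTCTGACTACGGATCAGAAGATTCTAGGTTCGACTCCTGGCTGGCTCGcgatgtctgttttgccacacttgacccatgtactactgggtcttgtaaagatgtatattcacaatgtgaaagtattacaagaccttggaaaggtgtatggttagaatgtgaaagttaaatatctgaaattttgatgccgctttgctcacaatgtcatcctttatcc
TRL-AAG2-4: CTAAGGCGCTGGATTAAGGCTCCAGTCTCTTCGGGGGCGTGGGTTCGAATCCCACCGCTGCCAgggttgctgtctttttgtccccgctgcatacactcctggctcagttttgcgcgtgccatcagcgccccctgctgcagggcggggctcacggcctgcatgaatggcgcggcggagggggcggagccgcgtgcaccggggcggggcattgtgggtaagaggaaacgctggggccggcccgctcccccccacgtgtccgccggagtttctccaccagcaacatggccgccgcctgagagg
TRI-TAT2-2: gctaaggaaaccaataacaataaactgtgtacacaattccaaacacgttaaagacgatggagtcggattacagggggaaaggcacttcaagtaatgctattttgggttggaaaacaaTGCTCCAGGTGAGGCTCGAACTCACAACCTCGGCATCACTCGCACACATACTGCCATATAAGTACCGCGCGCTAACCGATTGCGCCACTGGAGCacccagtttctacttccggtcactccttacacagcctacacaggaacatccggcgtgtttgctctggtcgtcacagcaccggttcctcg

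The letters GTTCNANNC, the core of the B box, were present on either strand in all 14 windows that held a whole tRNA gene and in 7.46% of the 34961 promoter windows of the table. The strand of a tRNA gene was read from these letters. Within those 14 genes the match began between base 51 and base 74. The letters of the anticodon occurred at several places in many of these genes, and the match at bases 33 to 37 was taken. It began between base 33 and base 35, a range limited by that choice. Genes with lines and genes without lines shared these letters. The E-box CACGTG was in 0 of the 14 windows and in 7.27% of all promoter windows. A GATA motif was in 6 of the 14 windows and in 24.9% of all. It is here the letters GATA with A or T before them and A or G after them, on either strand. The 6 were at TRF-GAA1-5, TRP-TGG3-2, TRR-ACG2-1 and TRT-TGT6-1, with a GATA3 line, and at TRN-GTT4-1 and TRN-GTT6-1, with no line. The window of TRH-GTG1-9, which had a GATA3 line, held no such motif. TATAAA was in 1 of the 14 windows and in 11.5% of all. Among the 29 windows that touched a tRNA gene, 1 held CACGTG, that of POLR3E. Its match lay at chr16:22297408-22297413, inside the BHLHE40 line there and 151 bp from that line's summit.

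Of the 429 tRNA genes, 180 had a BHLHE40 line within 500 bp, or 42.0% (95% Wilson interval 37.4 to 46.7%, counting error only), against 28.2% of all gene records. A GATA3 line was present at 115 tRNA genes, or 26.8% (22.8 to 31.2%), against 21.7% of all gene records. H3K27ac lines were present at 174 tRNA genes, or 40.6% (36.0 to 45.3%), against 41.4%, so the share for H3K27ac was near the background. Counted on the records without flanks, H3K27ac was at 24.9% of tRNA genes and 38.8% of all gene records. Lines of all 3 lists were present at 107 tRNA genes, or 24.9% (21.1 to 29.2%), against 17.2%. With stricter lists (an IDR of 0.01 for the factors, where IDR is the irreproducible discovery rate between the samples, and −log10 q of at least 5 for H3K27ac) the shares were 38.0% for BHLHE40, 18.9% for GATA3, 34.7% for H3K27ac and 15.4% for all 3. Over all gene records the stricter shares were 25.2%, 17.8%, 27.9% and 12.5%. The stricter GATA3 share was thus near that of all gene records, which lay inside its interval of 15.5 to 22.9%. For all 3 lists the interval, 12.3 to 19.1%, also included the value of all gene records. These shares are descriptions without a test, because genes in a cluster share lines and are not independent.

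A tRNA gene is much shorter than most gene records (70 to 108 bp, median 73 bp), and a long record meets more lines. Among 6503 other gene records of at most 200 bp, 6.78% had a BHLHE40 line, 4.44% a GATA3 line and 9.90% an H3K27ac line. The tRNA shares were thus higher than those of other short records for each list. Among 1190 small nucleolar RNA (snoRNA) records, 11.5% had a BHLHE40 line. Among 1911 microRNA (miRNA) records it was 10.0%, and among 149 spliceosomal small nuclear RNA (snRNA) records 22.8%. The snRNA records, which like tRNA genes have promoters of their own, stood nearest to the tRNA genes of these 3 classes. Protein-coding records were above the tRNA genes, with 57.6% for BHLHE40, 42.5% for GATA3 and 73.3% for H3K27ac.

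**Figure D1:**
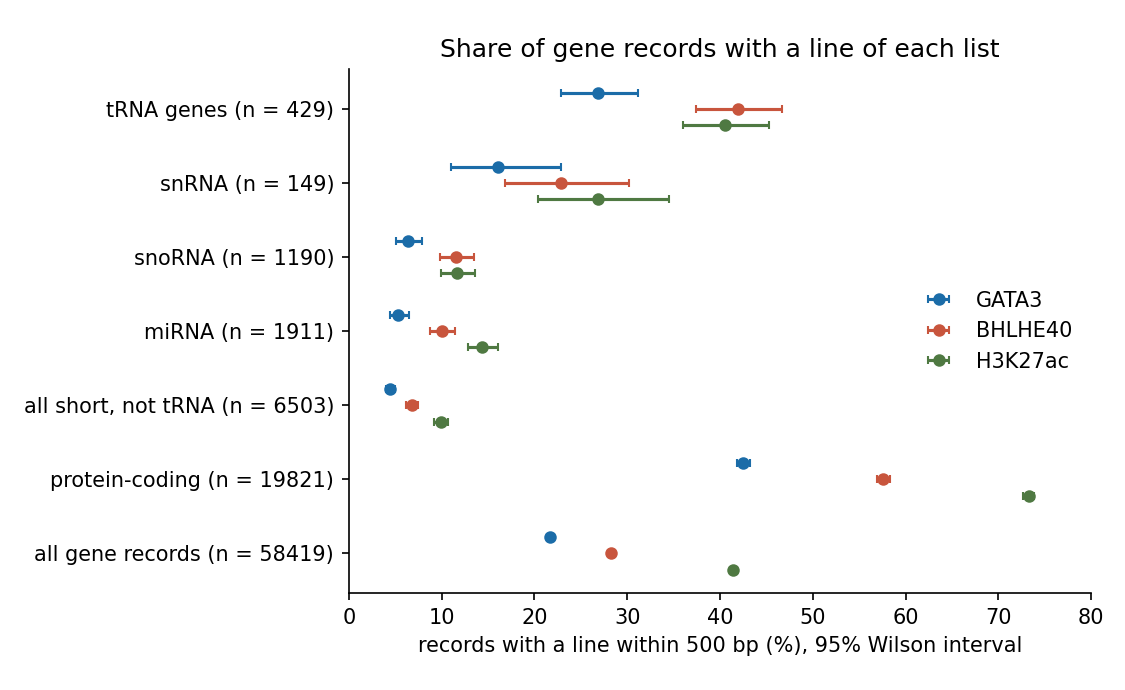
Percentage of gene records with a line of each list within 500 bp (horizontal axis) for tRNA genes and comparison classes (vertical axis), with points for the share and bars for the 95% Wilson interval. The 429 tRNA genes sit at 42.0% for BHLHE40, above the snRNA, snoRNA, miRNA and other short records and below protein-coding records.

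Part of the tRNA genes lie beside protein-coding genes. With a protein-coding record within 1000 bp, 73.8% of 84 tRNA genes had a BHLHE40 line, 53.6% a GATA3 line and 72.6% an H3K27ac line. For the 345 tRNA genes with no such neighbour the shares were 34.2%, 20.3% and 32.8%. The tRNA genes near a protein-coding record therefore had lines more often in each list, and how far the neighbouring promoter contributes to them was not tested. Among other short records the same split gave smaller values. BHLHE40 lines were at 8.81% of the 3473 with a protein-coding neighbour and at 4.46% of the 3030 without. In both strata the tRNA share was above that of the other short records.

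The lists met at the same tRNA genes. Of the 115 genes with a GATA3 line, 109 also had a BHLHE40 line (94.8%, 89.1 to 97.6%), compared with 71 of the 314 without one (22.6%). Over all gene records with a GATA3 line, 81.7% had a BHLHE40 line. H3K27ac was present at 163 of the 180 genes with a BHLHE40 line (90.6%), close to the 95.1% over all gene records with such a line, and at 11 of the 249 without (4.42%). In the other direction 109 of the 180 BHLHE40 genes had GATA3 (60.6%), near the 62.8% over all gene records with a BHLHE40 line. The sets were therefore largely nested, with GATA3 genes inside the BHLHE40 genes.

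By combination, 234 tRNA genes had no line, 107 had all 3, and 56 had BHLHE40 and H3K27ac without GATA3. BHLHE40 stood alone at 15 genes, H3K27ac alone at 9 and GATA3 alone at 4. GATA3 with BHLHE40 only was found at 2 genes and GATA3 with H3K27ac only at 2. The signal value, the authors' measure of enrichment for a line, is used here only to describe and rank lines within 1 list, and a gene is given its highest line. The median BHLHE40 signal was 13.3 at the 107 genes with all 3 lists (12.5 to 14.7, the 95% order-statistic interval), 9.79 at the 56 genes with H3K27ac only beside it, and 7.46 at the 15 with BHLHE40 alone. The median H3K27ac signal was 6.65 at genes with all 3 lists and 3.31 at the 9 genes with H3K27ac alone. The rarest combinations did not follow this order. The 2 genes with both factors and no H3K27ac shared a BHLHE40 signal of 6.90, and the 2 with GATA3 and H3K27ac had a median H3K27ac signal of 8.31.

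Lines at tRNA genes ranked differently in the 3 lists. They numbered 86 for GATA3, 128 for BHLHE40 and 177 for H3K27ac, since up to 4 neighbouring tRNA genes shared a line. For GATA3 their median signal was 8.88 (7.53 to 9.77), below the 11.2 of the whole list, and 27 of 86 lines were above the list median. For BHLHE40 it was 11.2 (9.81 to 13.0) against 9.35, with 80 of 128 lines above the list median. For H3K27ac it was 4.58 (3.93 to 5.24) against 3.31, with 128 of 177 above. The top decile of the list held 4 GATA3 lines, 13 BHLHE40 lines and 72 H3K27ac lines. GATA3 lines at tRNA genes were thus mostly below and H3K27ac lines mostly above the median of their list.

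**Figure D2:**
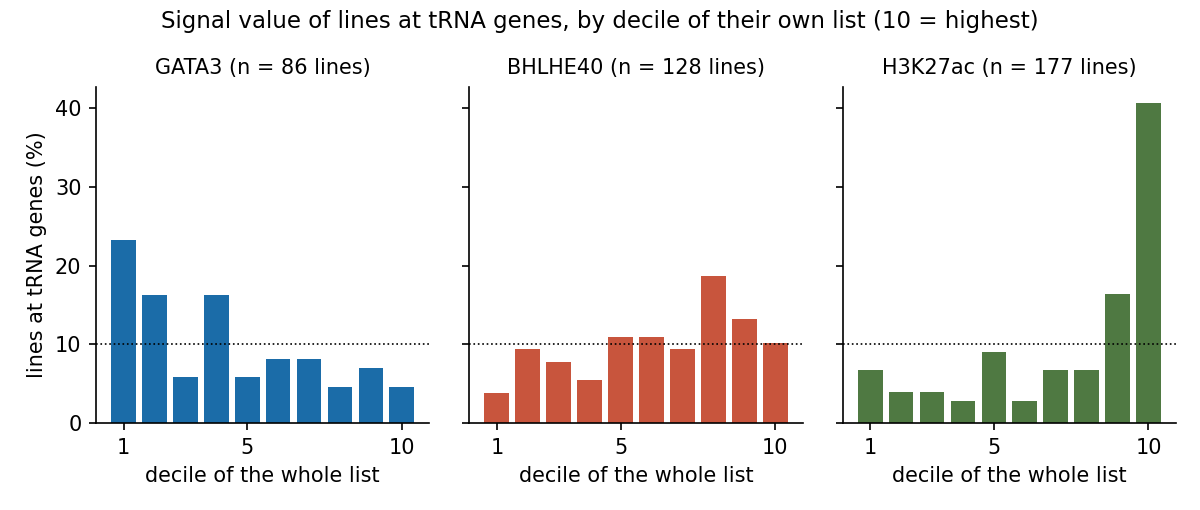
Percentage of the lines at tRNA genes (vertical axis) that fall in each decile of signal value of the whole list (horizontal axis, 10 the highest), with 1 panel per list and a dotted line at the 10% that an even spread would give. GATA3 bars are tallest in the lowest decile, which held 20 of 86 lines, and the H3K27ac bar is tallest in the highest, with 72 of 177.

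The lines at tRNA genes were also wide. Median widths were 1081.5 bp for GATA3, 1334.5 bp for BHLHE40 and 540 bp for H3K27ac, against 596, 739 and 232 bp in the whole lists. A wide line overlaps others more readily, so signal and overlap were also read within a fixed range of widths, the middle 50% of the widths at tRNA genes. The median signals there were 9.30 at tRNA genes against 15.7 at the other lines for GATA3, 12.3 against 11.6 for BHLHE40, and 4.67 against 3.78 for H3K27ac. At like width the gap was thus wider for GATA3 and narrower for BHLHE40 and H3K27ac than against the whole lists. In that range for GATA3 (764.5 to 1484.5 bp) 38 of 42 GATA3 lines at tRNA genes overlapped a BHLHE40 line (90.5%, 77.9 to 96.2%), against 77.4% of the 7705 others. For BHLHE40 lines of 941.5 to 1757.25 bp, 59.4% of 64 lines at tRNA genes overlapped a GATA3 line, against 54.0% of the 6854 others. The interval of the latter share for tRNA genes, 47.1 to 70.5%, includes the value of the other lines.

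BHLHE40 summits lay close to the tRNA genes themselves and H3K27ac summits mostly beside them, while GATA3 summits were spread more widely. A summit is the position of the highest enrichment in a line. Within 2000 bp of the centre of the gene, the nearest BHLHE40 summit was at a median of 96 bp (81 to 132 bp, 187 genes), the nearest GATA3 summit at 233 bp (144 to 451 bp, 129 genes) and the nearest H3K27ac summit at 288 bp (248 to 330 bp, 195 genes). For BHLHE40, 95 of the 187 genes (50.8%) had the summit within 100 bp, and for GATA3 42 of 129 (32.6%). For H3K27ac only 10 of 195 (5.13%) did, and 133 lay between 100 and 500 bp. GATA3 summits were over 500 bp away at 49 of the 129 genes, more than were within 100 bp, and the intervals of the GATA3 and H3K27ac medians overlapped. With the stricter lists the GATA3 median was 363 bp (158 to 540 bp, 91 genes) and the H3K27ac median 297.5 bp (253 to 332 bp), which turns the order of these 2, while BHLHE40 was at 98 bp. Few acetylation summits were thus at the gene, and the GATA3 and H3K27ac medians were not separated.

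**Figure D3:**
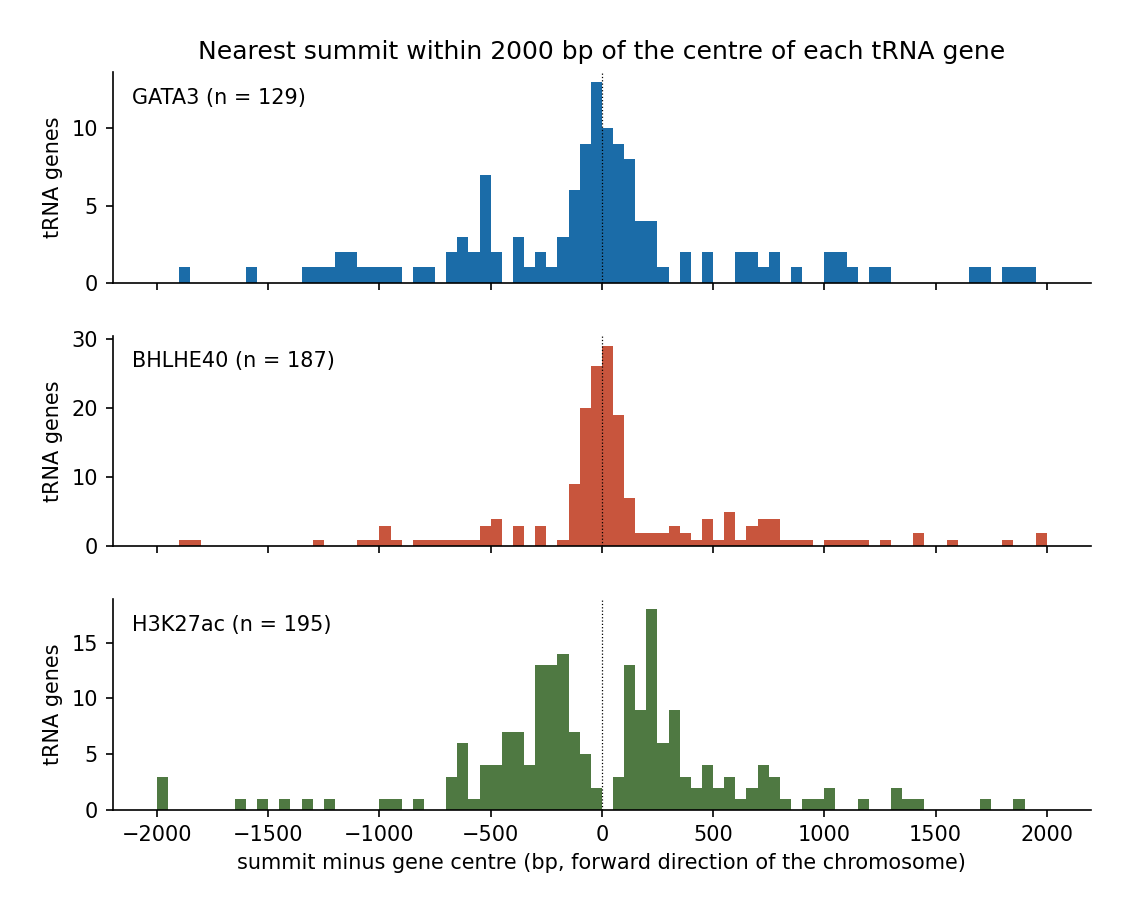
Number of tRNA genes (vertical axis) by the position of the nearest summit relative to the centre of the gene in bp (horizontal axis, bins of 50 bp), with 1 panel per list. BHLHE40 and GATA3 have a central peak, with 49 of 129 GATA3 summits over 500 bp away, whereas H3K27ac has a dip at the centre, where 2 of 195 summits lay within 50 bp, between peaks on both sides.

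For comparison, the nearest BHLHE40 summit was at a median of 1041 bp from snoRNA records (132 with a summit within 2000 bp) and 700 bp from miRNA records (249). At snRNA records it was 98 bp (35 records), and the H3K27ac summit was 208.5 bp away (48 records). The nearest GATA3 summit was at a median of 101 bp from snRNA records (62 to 255 bp, 29 records), against 233 bp (144 to 451 bp) at tRNA genes, and 48.3% against 32.6% were within 100 bp. The BHLHE40 medians of tRNA and snRNA records were thus of similar size, and those of snoRNA and miRNA records, many of which sit inside longer genes, were larger. Near and far from protein-coding records, the BHLHE40 distance at tRNA genes with a line was 95 bp (62 genes) and 94.5 bp (118 genes). The intervals of these medians, 63 to 144 bp and 70 to 170 bp, overlapped over most of their length.

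The record itself, without its 500 bp flanks, was overlapped by a BHLHE40 line at 175 of the 180 genes (97.2%) and by a GATA3 line at 107 of the 115 (93.0%). H3K27ac lines covered some of the record at 107 of 174 genes (61.5%, 54.1 to 68.4%), and at the other 67 they lay beside it only. Among other short records with a line in the window, the record was overlapped at 78.2% for BHLHE40, 67.3% for GATA3 and 52.2% for H3K27ac. The H3K27ac value of those records was below the interval for tRNA genes. At 17 of those 67 an H3K27ac line lay on each side. A summit fell inside the record at 46 genes for BHLHE40, 18 for GATA3 and 1 for H3K27ac. At the 109 genes with both factors the summits were a median of 125 bp apart (85 to 203 bp) and within 50 bp of each other at 31. The BHLHE40 summit was the nearer to the gene at 54 of these genes and the GATA3 summit at 55. Over the 74 BHLHE40 lines at tRNA genes that overlapped a GATA3 line, the rank correlation of the signal values was 0.094 (Pearson's r 0.252), a description across lines from the same cells.

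The strongest lines belonged to a few genes, which are named here by rank in each list. The highest GATA3 line at a tRNA gene was at TRS-GCT4-2, a serine gene at chr15:40593825-40593906, with a signal of 75.8 and rank 570 of 29009. The same gene had the highest BHLHE40 line, with a signal of 51.5 and rank 339 of 26205. Their summits lay 505 and 509 bp from the centre of the gene, 4 bp apart, so the strongest values were beside the gene. The glutamate gene TRE-CTC1-1 (chr1:146035692-146035763) followed for GATA3, with 71.1 and a summit 104 bp away. Its H3K27ac signal was 2.76, below the list median of 3.31. The glycine gene TRG-TCC1-1 and the valine gene TRV-CAC3-1, neighbours on chromosome 19, shared a GATA3 line of 59.1 and a BHLHE40 line of 37.9. These 2 lines did not overlap each other. The GATA3 line lay on TRV-CAC3-1 and 303 bp from TRG-TCC1-1, and the BHLHE40 line on TRG-TCC1-1 and 273 bp from TRV-CAC3-1. On its own record TRG-TCC1-1 had a GATA3 line of 11.2, and TRV-CAC3-1 a BHLHE40 line of 11.2. The initiator methionine gene TRX-CAT1-8 had a GATA3 line of 34.4, and TRL-CAG1-6 and TRG-TCC2-6 on chromosome 1 shared one of 31.9.

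For BHLHE40 the next genes were the methionine gene TRM-CAT6-1 (chr16:87384022-87384094), with a signal of 44.1 and a summit 3 bp from its centre, and TRL-AAG2-4 at POLR3E, with 38.5 and 79 bp. Their GATA3 signals were 7.60 and 9.16, both below the list median of 11.2. TRI-TAT1-1 had a BHLHE40 signal of 34.0. At the first 2 of these genes a strong BHLHE40 line thus stood beside a weak GATA3 line, unlike at TRS-GCT4-2.

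For H3K27ac the selenocysteine gene TRU-TCA1-1 (chr19:45478601-45478687) had a signal of 25.9, rank 39 of 113570, with a summit 175 bp from its centre. Its BHLHE40 signal was 12.3 and its GATA3 signal 6.22. This tRNA reads UGA as selenocysteine and is needed for every selenoprotein. The second selenocysteine record, TRU-TCA2-1 on chromosome 22, had no line, and its nearest BHLHE40 summit was 30540 bp away. The next H3K27ac values were 16.2 at TRI-TAT2-1, 14.8 at TRV-AAC1-5, 12.6 at TRE-CTC1-7 and 12.6 at TRL-CAG1-7. TRI-TAT2-1 is a copy in the same family as TRI-TAT2-2, printed above, which had no line.

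GATA3 without BHLHE40 occurred at 6 genes, 5 of them on chromosome 6. TRQ-CTG1-2 had a GATA3 signal of 24.9 with the summit 170 bp away, and its nearest BHLHE40 summit was 16604 bp away. TRX-CAT1-4 had 18.6. The others were TRG-CCC2-1 (8.81), TRW-CCA3-2 (7.68), TRK-CTT2-4 (6.76) and TRX-CAT1-6 (6.71), all below the list median of 11.2. H3K27ac at −log10 q of at least 5 without either factor occurred at TRQ-TTG3-2 (signal 3.74) and TRR-TCT3-1 (4.05).

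The 500 bp limit cut through few genes. For BHLHE40 the 3 genes just inside had lines ending 202 bp (TRL-TAA3-1), 238 bp (TRL-AAG1-3) and 374 bp (TRC-GCA8-1) from the record, and the 3 just outside had lines 643, 672 and 674 bp away. For GATA3 the nearest inside were 250, 355 and 444 bp away and the nearest outside 568, 578 and 620 bp. For H3K27ac the 3 inside were 459, 497 and 497 bp away and the 3 outside 536, 559 and 589 bp. The H3K27ac share of tRNA genes was 36.8% with 250 bp and 43.1% with 1000 bp. Over all gene records it was 40.3% and 43.3%.

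By amino acid, proline and arginine genes had BHLHE40 and GATA3 lines most often among classes of at least 20 genes. Cysteine and asparagine genes had them least often. BHLHE40 lines were present at 15 of 20 proline genes, 17 of 26 arginine genes, 5 of 29 cysteine genes and 4 of 21 asparagine genes. GATA3 lines were at 8 of 20, 11 of 26, 2 of 29 and 2 of 21. Many of these genes sit in the same clusters, so the amino acid and the position cannot be told apart in these counts. Of the 29 cysteine genes, 18 lie in a single group on chromosome 7 in which no gene had a line.

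**Figure D4:**
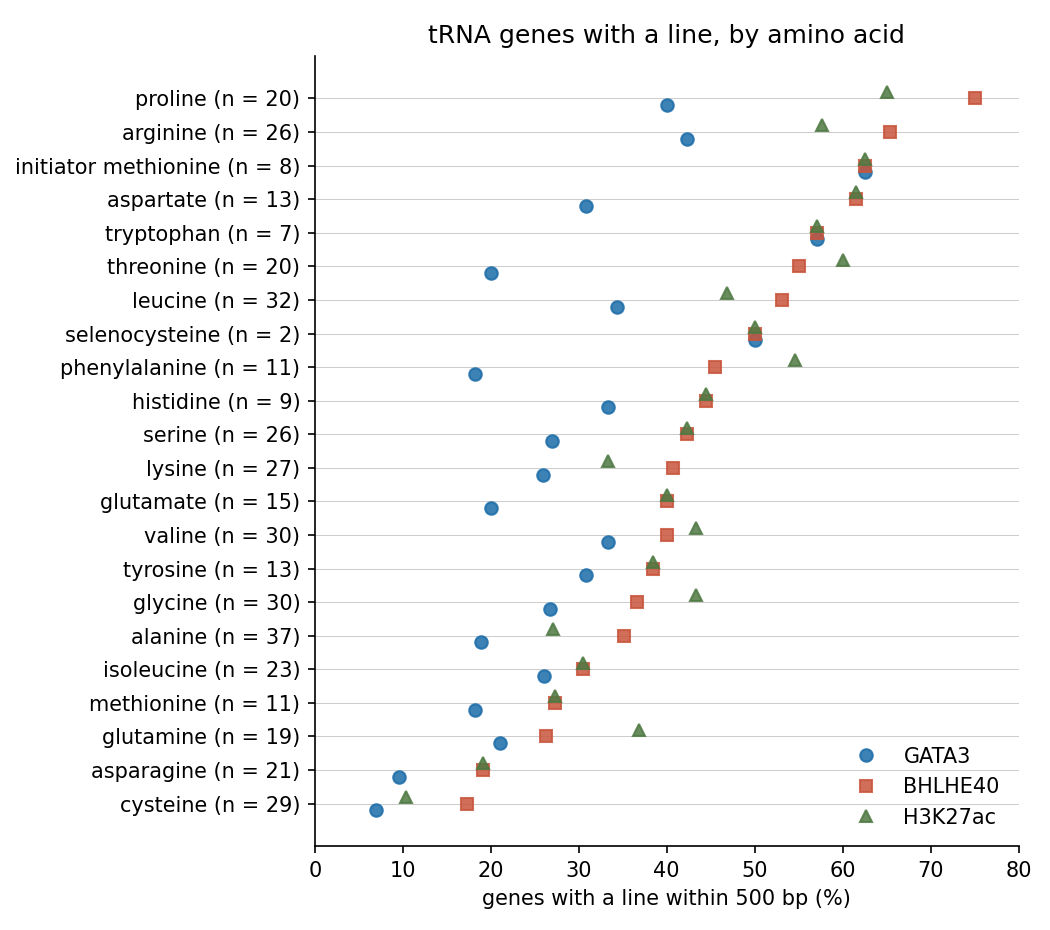
Percentage of tRNA genes with a line within 500 bp (horizontal axis) by amino acid (vertical axis, with the number of genes), with circles for GATA3, squares for BHLHE40 and triangles for H3K27ac. Proline is at the top with BHLHE40 at 15 of 20 genes and cysteine at the bottom with 5 of 29.

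Of 49 classes of amino acid and anticodon, 47 had at least 1 gene with a BHLHE40 line and 44 at least 1 with a GATA3 line. The 2 classes without BHLHE40 were TRI-GAT, with 3 isoleucine genes on chromosome X, and TRY-ATA, with 1 tyrosine gene. None of these 4 genes had any line. Of the 3 TRL-TAG genes, TRL-TAG1-1 had lines of all 3 lists, TRL-TAG3-1 a BHLHE40 line only (signal 14.7), and TRL-TAG2-1 none. Nearly all anticodons thus had a gene with a BHLHE40 line, while most classes also held genes with none.

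The 8 initiator methionine genes, which supply the tRNA that starts every protein, were split. BHLHE40, GATA3 and H3K27ac lines were each present at 5 of them and all 3 together at 3, which were TRX-CAT1-1, TRX-CAT1-2 and TRX-CAT1-8. At TRX-CAT1-1 the GATA3 and BHLHE40 summits were 29 and 33 bp from the centre, with signals of 13.3 and 13.2. TRX-CAT1-3 and TRX-CAT1-7 had BHLHE40 and H3K27ac, TRX-CAT1-4 and TRX-CAT1-6 had GATA3 alone, and TRX-CAT1-5 had no line.

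Copies of the same mature tRNA also differed in other families. Among 57 families of at least 2 copies (222 genes), 34 had BHLHE40 at some copies and not at others, 10 had it at every copy and 13 at none. For GATA3 the counts were 34 mixed, 4 at every copy and 19 at none. For H3K27ac they were 35, 8 and 14. Of the 9 histidine genes TRH-GTG1-1 to TRH-GTG1-9, 4 had BHLHE40. TRH-GTG1-7, TRH-GTG1-8 and TRH-GTG1-9, side by side on chromosome 15, had all 3 lists, and TRH-GTG1-1 on chromosome 1 had BHLHE40 and H3K27ac. Of the 5 proline genes of TRP-TGG3, 4 had BHLHE40, and TRP-TGG3-4 had none. The signals were 11.1 at TRP-TGG3-1, 8.65 at TRP-TGG3-2, and 13.0 at TRP-TGG3-3 and at TRP-TGG3-5. The 3 arginine genes of TRR-ACG1 all had both factors. Their BHLHE40 signals were 6.90 at TRR-ACG1-1, 16.0 at TRR-ACG1-2 and 11.3 at TRR-ACG1-3. TRR-ACG1-1 shared its line with TRS-AGA2-1, with the summit 516 and 31 bp from their centres. TRR-ACG1-2 shared its line with TRV-CAC1-6, with the summit 567 and 11 bp away. How many families were mixed went with the number of copies. Of the 22 families of 2 copies, 9 had BHLHE40 at neither copy, 7 at both and 6 were mixed. Of the 20 families of 5 or more copies, 19 were mixed, and a large family has more chances to be so.

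The number of the mature sequence in the symbol, which in this naming runs roughly from the most typical tRNA sequence to the least, went with the share of genes with lines. BHLHE40 was present at 56.0% of 116 genes numbered 1, 55.8% of 104 numbered 2, 41.5% of 94 numbered 3 or 4, and 16.8% (10.9 to 25.0%) of 107 numbered 5 or more. GATA3 fell from 39.7% to 11.2% over the same classes. By copies, BHLHE40 was at 32.7% of 199 genes with a sole copy, 46.2% of 93 in families of 2 to 4, and 55.8% of 129 in families of 5 or more. High numbers and sole copies thus had lines less often in these counts, and none of the 8 records without such a number had a line.

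Chromosome groups of at least 10 tRNA genes, with gaps of at most 1 Mb, held 283 of the genes. In them 32.5% of genes had a BHLHE40 line and 21.9% a GATA3 line, compared with 60.3% and 36.3% of the 146 genes elsewhere. The group on chromosome 17 (chr17:8119155-8227064) had lines of all 3 lists at 15 of its 18 genes, which read 11 amino acids. Neighbours there shared lines, so the 15 genes do not stand for as many lines. TRK-TTT3-5, TRQ-CTG1-5, TRL-TAG1-1 and TRR-TCT2-1 shared a BHLHE40 line. TRW-CCA3-3, TRS-GCT4-3, TRT-AGT1-1 and TRI-AAT5-5 shared a GATA3 line of signal 4.91, rank 28335 of 29009. GATA3 signals in the group ran from 4.08 to 20.8. The group on chromosome 7 (chr7:149310190-149707740) had no line of any list at its 19 genes, of which 18 were cysteine genes. The 95% Wilson interval for 0 of 19 runs up to 16.8%. These groups were the extremes among the 8.

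The largest group, on chromosome 6 (chr6:26286526-28989083), held 144 genes, of which 40 had BHLHE40, 23 GATA3, 40 H3K27ac and 16 all 3. Within it the counts changed from block to block, where blocks are separated by more than 100000 bp. The first block (chr6:26286526-26331515) had BHLHE40 at 6 of 13 genes and GATA3 at 6. The third (chr6:27020346-27335062) had BHLHE40 at 3 of 21 and GATA3 at 1. The last (chr6:28474552-28989083) had BHLHE40 at 14 of 43 and GATA3 at 2. Of the 2 groups on chromosome 1, chr1:161399700-161612029 had BHLHE40 at 8 of 32 genes and chr1:143691474-148529330 at 4 of 25. Groups on chromosome 5 (11 of 17), chromosome 14 (8 of 14) and chromosome 16 (6 of 14) lay between these and the group on chromosome 17.

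**Figure D5:**
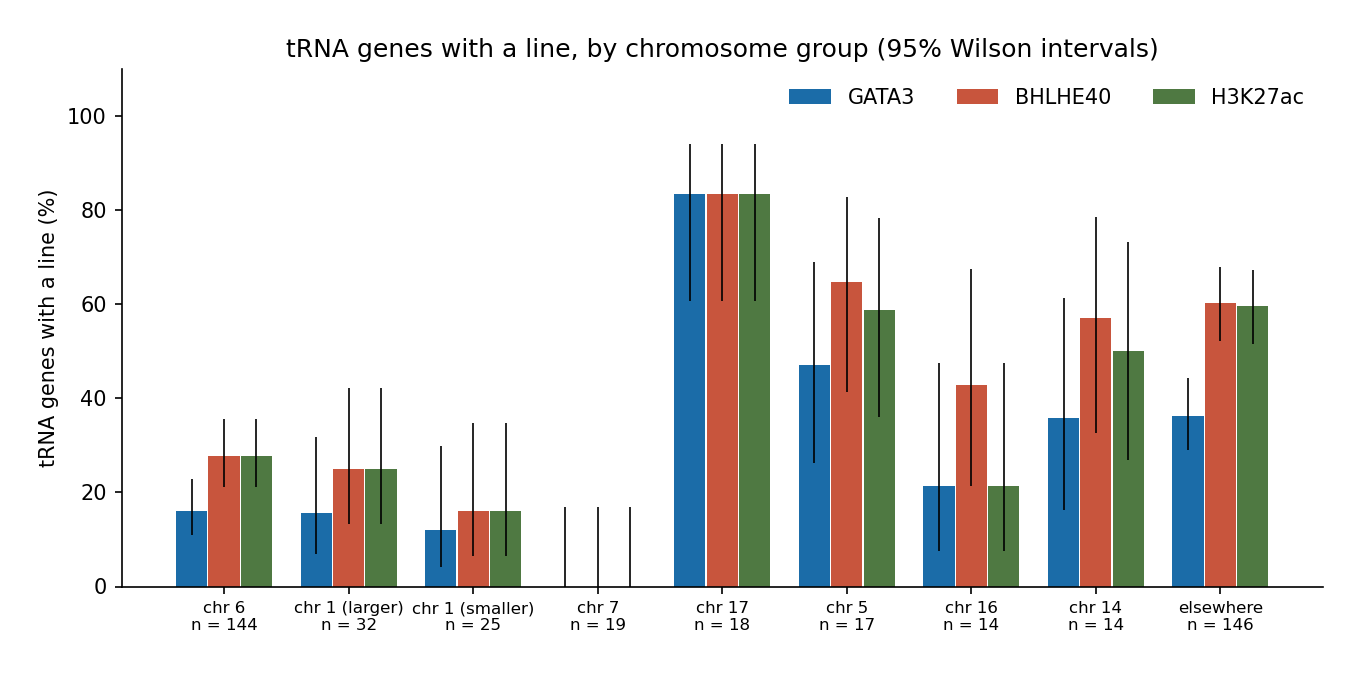
Percentage of tRNA genes with a line of each list (vertical axis) in the 8 chromosome groups of at least 10 tRNA genes and elsewhere (horizontal axis), with bars for the share and thin lines for the 95% Wilson interval. The group on chromosome 17 has lines at 15 of 18 genes in each list and the group on chromosome 7 at 0 of 19. Neighbouring genes can share a line.

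The genes that make and handle tRNA were read from lists, by the ends of their records. A signal value given for such a gene is that of its highest line over the whole record, which need not lie at an end. Of 19821 protein-coding records, 45.3% had a BHLHE40 line within 500 bp of an end, 20.7% a GATA3 line and 53.2% an H3K27ac line. Among 13 subunits of RNA polymerase III, BHLHE40 was at 12, GATA3 at 5 and H3K27ac at 13. POLR3E had a BHLHE40 signal of 38.5, from the line it shares with TRL-AAG2-4, and POLR3B had 27.6. POLR3GL was the subunit without BHLHE40. Among 11 genes of TFIIIC, TFIIIB and TFIIIA the counts were 10, 6 and 10, with 20.4 for BRF2, the TFIIIB subunit used at promoters outside the gene. Both MAF1, the repressor of RNA polymerase III, and SSB, which encodes the La protein that binds new polymerase III transcripts, had BHLHE40 and H3K27ac but not GATA3.

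Of 20 cytosolic aminoacyl-tRNA synthetase genes, whose products load tRNAs with amino acids, 19 had BHLHE40, 8 GATA3 and 20 H3K27ac at a record end. BHLHE40 signals were 30.9 at MARS1 and 26.8 at YARS1, and QARS1 had no BHLHE40 line. Among 14 genes of tRNA processing and export the counts were 10, 4 and 12. XPOT, the nuclear export receptor of tRNA, had a GATA3 signal of 35.1 and TSEN54, a subunit of the splicing endonuclease, a BHLHE40 signal of 32.6. These lists were chosen by function, and their counts are given as values only.

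Other genes transcribed by RNA polymerase III, most of which have promoters before the gene, had BHLHE40 at 16 of 20, GATA3 at 7 and H3K27ac at 15. Among gene records of at most 200 bp other than tRNA the shares were 6.78%, 4.44% and 9.90%. Among snRNA records they were 22.8%, 16.1% and 26.8%. BHLHE40 signals were 38.9 at RN7SL2 and 22.4 at RN7SL1, which encode the RNA of the signal recognition particle, and 17.2 at RN7SK, which encodes an RNA that holds back the elongation factor P-TEFb. RMRP and RPPH1, the RNAs of 2 ribonucleases, had 10.6 and 15.7 with no GATA3 line. None of 17 records of 5S ribosomal RNA on chromosome 1, a tandem repeat, had a line of any list.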

How the data were processed

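ChIP-seq of Jurkat cells was read from 3 deposited peak lists, each for a group of 2 samples, grouped by their titles. Per the submitters' processing notes, bcl2fastq 2.20, MACS2 and build hg38 were used. The aligner, filters and use of input are not given in the sources used here. For the factors the deposited score gives the irreproducible discovery rate (IDR) of the peak ranks of 2 samples, with 540 for an IDR of 0.05 and 830 for 0.01. The H3K27ac list is named as pooled, with no such filter, so it holds many weak lines. The authors' signal value and −log10 q-value were used only within 1 list.

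Gene records came from RefSeq (GRCh38.p14). Records with scaffold coordinates under a chromosome's number (679 of 59098, 14 of them tRNA) were left out. A gene had a line when at least 1 bp overlapped the record extended by 500 bp. Shares carry 95% Wilson intervals, and medians carry 95% order-statistic intervals. Both treat genes or lines as independent, which clustered genes are not, and cover counting error only. No test was run, since the lists hold no value per sample. The functions for overlap and for both kinds of interval were tested on simulated data. Python 3.11.15 was used with matplotlib 3.10.9, scipy 1.17.1, pandas 2.3.3 and numpy 2.4.6.

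The members and gene lists were chosen with earlier results of these data known. Genes were named by rule: those at the 5 lines of highest signal per list, classes of at most 3 genes, the 3 genes on each side of the 500 bp limit, groups of at least 10 genes, genes with GATA3 without BHLHE40, and genes with H3K27ac at −log10 q of at least 5 without a factor. TRX genes, the families described copy by copy, the genes whose sequences are printed, and named genes of the functional lists were chosen after their values were seen. Motifs were to be searched in promoters of tRNA genes. The promoter table had 0 entries for them, so windows of neighbouring genes were used. Alternatives were other windows, stricter lists, summits, merged windows and subsets of genes.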

Additional observations from a re-analysis of the deposited data

How the results depend on the processing

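Of 56 alternative values of 10 results, 33 stayed within the interval of the reported value and 23 moved outside it. With no flanks, the share of tRNA genes with H3K27ac was 24.9% and with all 3 lists 15.4%, and with 2000 bp the H3K27ac share was 47.1%. Over all gene records H3K27ac was at 38.8% with no flanks and 46.8% with 2000 bp. With stricter lists (score of at least 830 or −log10 q of at least 5) the shares were 18.9% for GATA3, 34.7% for H3K27ac and 15.4% for all 3, against 17.8%, 27.9% and 12.5% of all gene records. With the summit required in the window they were 19.8% for GATA3, 32.6% for BHLHE40, 34.7% for H3K27ac and 13.3% for all 3. With touching windows merged into 352 units they were 22.2%, 36.1%, 35.2% and 20.2%. Without chromosome 6 they were 32.7%, 50.2%, 48% and 32.4%. With no protein-coding record within 1000 bp they were 20.3%, 34.2%, 32.8% and 18.3%. For the summit, merged, chromosome 6 and neighbourhood settings no share over all gene records under the same rule is given here. Those values are therefore not to be set against the shares of all gene records stated for other rules. The median GATA3 summit distance rose from 233 to 363 bp with stricter lists, which stayed within its interval of 144 to 451 bp. The median H3K27ac signal was 5.78 for lines on the record itself. Fewer or other genes and lines entered each of these by construction, and beyond that the cause was not tested. The setting limited to numbered gene names was chosen after seeing the data, and its 4 values did not leave the intervals.

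No paired analysis was possible because the lists merge the samples of a group and hold no value per sample. For the same reason leaving out a replicate was not run. Depth, the handling of reads that match identical copies and the use of input are unknown here, so the lack of a line says that none was called, not that binding was absent.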
